A study of Mus musculus with 2 samples.

Results

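Ribosomal proteins are the protein subunits of the 2 ribosomes that an animal cell keeps, the cytosolic ribosome and the ribosome of the mitochondrion. Members were chosen by name alone, as probe sets whose only gene symbol in the platform annotation begins with Rpl, Rplp or Rps followed by a number (cytosolic) or with Mrpl or Mrps followed by a number (mitochondrial). The Rps6k kinase genes and pseudogene symbols were left out. The rule found 260 of the 45101 probe sets of the array, which read 125 of 18194 genes. The cytosolic class held 49 genes read by 104 probe sets, and the mitochondrial class 76 genes read by 156. The name rule also took in Rps19bp1, which encodes a binding partner of a ribosomal protein, Rpl7l1, a factor of ribosome assembly, and Mrps36, now known as a subunit of the oxoglutarate dehydrogenase complex.

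The arrays held total RNA of pancreatic islets from male mice aged 6 weeks. One sample, labelled with a miR-141/200c overexpression genotype and titled Ripmir, came from transgenic mice, and the other from C57Bl6 control mice. By their labels the tissue is islets and the source is beta cells. The labels give neither the promoter of the transgene nor how many mice stood behind a sample. There was 1 array for each genotype, so no value has a replicate error and no test was possible, and every statement of higher or lower describes these 2 arrays. Whether a difference would recur in other mice was not tested. The 2 microRNAs of the genotype are given below in the mature form of the 3p arm, from RefSeq on GRCm38.p6, to show what the transgenic mice carry in excess by their label. Capitals mark the seed, bases 2 to 8. Both lie on chromosome 6, on the minus strand, and their seeds are not the same.

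miR-141-3p (chr6:124717917-124717938): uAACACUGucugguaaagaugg
miR-200c-3p (chr6:124718324-124718346): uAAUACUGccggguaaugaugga

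A cytosolic ribosome has a small subunit, which reads the messenger RNA, and a large subunit, which joins the amino acids. Its messenger RNAs are among the most abundant of a cell, and in mammals most of them begin with a run of pyrimidines, the TOP sequence, through which the kinase mTOR controls their translation. The mitochondrial ribosome descends from a bacterial one and makes only the proteins that mitochondrial DNA encodes, among them hydrophobic subunits of the respiratory chain. Its proteins are encoded in the nucleus and imported. A beta cell depends on both, since insulin is made on cytosolic ribosomes at the endoplasmic reticulum and its release depends on mitochondrial respiration.

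Values are log2 RMA values, in which a difference of 1 is a 2-fold difference. Of several probe sets of a gene the brightest over both arrays stood for it, with no minimum level, so that every member is counted. The cytosolic class had a median level of 12.89 on the transgenic and 12.72 on the control array, with a range of 3.01 to 13.90 and 2.94 to 13.89. The mitochondrial class had a median level of 9.29 and 9.20, with a range of 6.86 to 10.82 and 6.65 to 10.64. The medians of all genes were 7.05 and 6.93. Both classes thus lay above the median gene on both arrays, and the class medians were 3.60 (transgenic) and 3.52 (control) apart. The signal of a probe set depends on its probes as well as on the RNA, and no value here is per transcript length, so these levels describe the probe sets and do not rank genes by abundance.

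The gap between the classes was not the same in every setting. Of the 49 cytosolic genes 65.3% were read by a probe set of the _a, _s or _x type, whose probes can match several transcripts, against 39.5% of the 76 mitochondrial genes. With those types left out, 26 cytosolic genes had median levels of 7.26 (transgenic) and 7.67 (control), below the 8.84 and 8.83 of 62 mitochondrial genes. The order of the classes was then the opposite, in a setting that leaves out genes and also moves others to dimmer probe sets. Several core subunits were read in the cytosolic class by a dim probe set alone. Rps16, a small subunit protein, had levels of 3.01 (transgenic) and 2.94 (control), and Rpl39, at the exit tunnel of the large subunit, 6.07 in both. Rpl3l and Rpl39l, paralogs known from striated muscle and testis, had levels of 3.21 and 3.18, and of 4.07 and 3.88, transgenic first. These 2 paralogs and Rps16 were the 3 members below 5.76, the median of all probe set values. A further 114 probe sets carry a ribosomal protein symbol beside other symbols, and were not members. They held 33 ribosomal protein symbols that had no probe set of their own, 31 of them cytosolic.

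**Figure D1:**
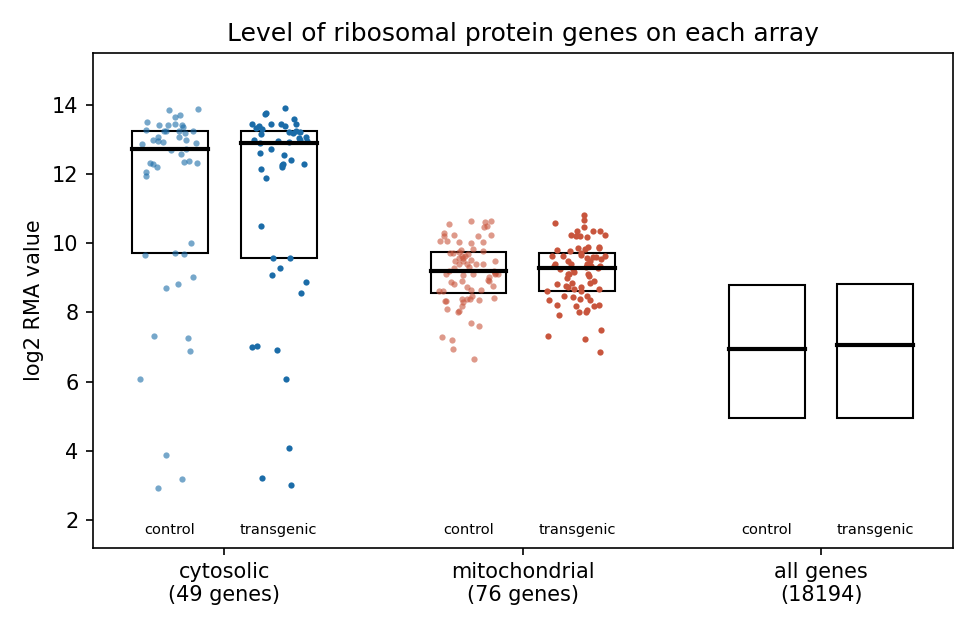
Log2 RMA value (vertical axis) of each member gene on the control and transgenic array, by class; points are genes, boxes span the quartiles and thick lines are medians, and all 18194 genes are shown as boxes only. The cytosolic genes gather near 13 with a tail down to 3, and the mitochondrial genes lie between 6.65 and 10.82.

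In the comparison of transgenic with control islets, the median of each class lay close to 0. The cytosolic class had a median difference (transgenic minus control) of 0.019, with quartiles of -0.064 and 0.077, and 29 of its 49 genes were higher and 20 lower. The mitochondrial class had a median difference of 0.016, with quartiles of -0.088 and 0.12, and 44 of 76 genes were higher and 32 lower. Over all 18194 genes the median was 0.0094 and 51.3% were higher. The medians of the classes were 0.0023 apart. The split into higher and lower was not stable for either class. After a second quantile normalization 22 of 49 cytosolic genes were higher, with a median of -0.0084. With the mean over the probe sets of a gene 25 of them were higher, with a median of 0.0014. In the mitochondrial class these settings gave 39 and 38 of 76 genes higher, with medians of 0.0060 and -8.6e-05.

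By a 1.5-fold rule (a log2 difference of 0.58), 0 of 49 cytosolic genes were higher and 0 lower. Of the 76 mitochondrial genes 0 were higher and 1, Mrpl20, was lower. Over all genes the same rule took in 6.13% on the higher and 2.61% on the lower side. No member reached the 2-fold rule, which 1.91% of all genes reached on the higher and 0.368% on the lower side. The spread of the differences was set beside that of other genes in 2 bands of level. Of the 34 cytosolic genes with a mean level of 12 or above, 70.6% had a difference of at most 0.1 in size. This compares with 41.4% of the 263 other genes in that band, and the interquartile ranges were 0.11 and 0.24. The band does not match level. Median levels within it were 13.12 (transgenic) and 13.07 (control) for the cytosolic genes, against 12.48 and 12.46 for the others. The part of level in the narrower spread was not tested. In that band 0.673% of all genes were 1.5-fold higher and 1.35% lower. Of the 70 mitochondrial genes with a mean level from 8 to 11, 45.7% were within 0.1, against 29.2% of 5652 other genes, with interquartile ranges of 0.21 and 0.37. The 7 cytosolic genes of this band were spread more widely, with 14.3% within 0.1 and an interquartile range of 0.30. In this band 5.1% of all genes were 1.5-fold higher and 3.11% lower. Over the whole class the interquartile range was 0.14 for cytosolic and 0.21 for mitochondrial genes. Without the _a, _s and _x probe sets it was 0.45 for the 26 cytosolic genes left, with 34.6% within 0.1, and 0.17 for the 62 mitochondrial ones. That setting changes the genes, the probe sets and the level at once, and these were not told apart.

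**Figure D2:**
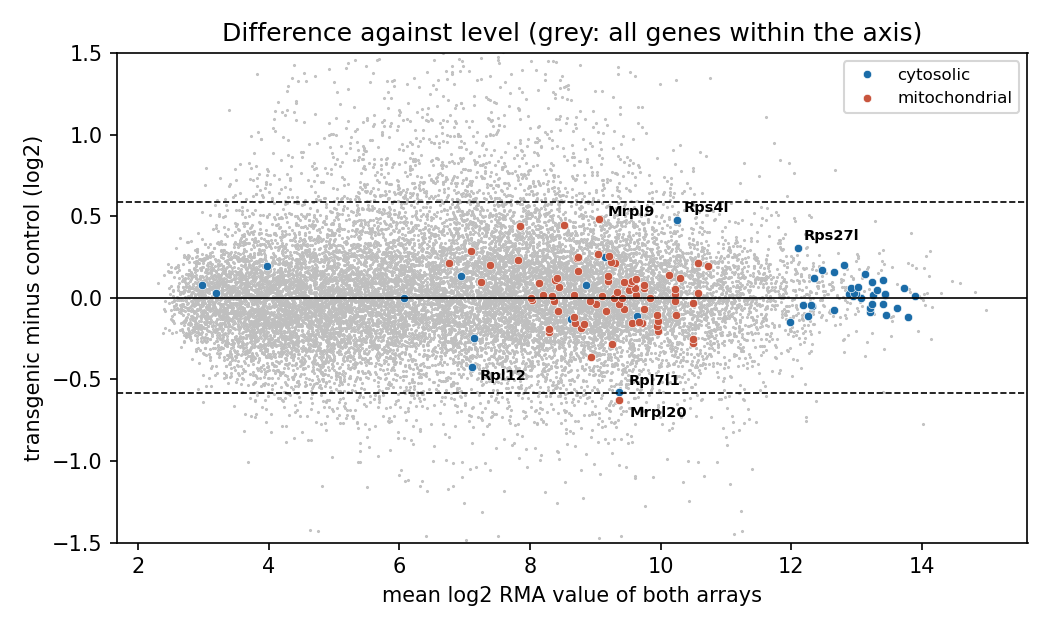
Transgenic minus control log2 difference (vertical axis) against the mean log2 RMA value of both arrays (horizontal axis), for cytosolic (blue) and mitochondrial (red) member genes over all genes (grey, those within the axis); dashed lines mark the 1.5-fold rule. Mrpl20 alone among the members lies past a dashed line, and Rpl7l1 lies just inside it.

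The subunits of each ribosome were described separately. The 26 proteins named for the large cytosolic subunit had a median difference of 0.013 and the 23 of the small one 0.019, with interquartile ranges of 0.16 and 0.15. In the mitochondrial class the 47 proteins named for the large subunit had a median of 0.032 and the 29 of the small one 0.00013. The spread of the 29 named for the small mitochondrial subunit was wider, with an interquartile range of 0.32 against 0.13. Of these 29 genes 8 lay within 0.1 of no difference, against 25 of 47. Taken by symbol, the 29 include Mrps30 and Mrps18a, which sit in the large subunit, and Mrps36, of the oxoglutarate dehydrogenase complex. Likewise the 26 named for the large cytosolic subunit include Rpl7l1 and the 23 for the small one Rps19bp1. Whether these spreads differ beyond the error of an array was not tested. The mitochondrial proteins were also split by lists, 45 listed as having a counterpart in bacterial ribosomes and 28 listed as specific to mitochondria. Mrps18b and Mrps18c were placed in the first list and Mrps18a in the second, so the split is approximate. The lists had median differences of 0.018 and 0.024, with 26 of 45 and 17 of 28 genes higher. Mrpl57, Mrpl58 and Mrps36 were in neither list.

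Among cytosolic genes the furthest lower was Rpl7l1, at 9.07 (transgenic) and 9.65 (control). Its difference of -0.58 is the size of a 1.49-fold difference, just inside the 1.5-fold rule, and its other probe sets gave -0.34 and -0.07. Rpl12, which helps to bind translation factors at the stalk base of the large subunit, had levels of 6.90 and 7.33 (difference -0.43) from a single dim probe set. Rps27, a zinc finger protein of the small subunit, was also read by 1 dim probe set, at 7.03 and 7.27 (-0.25). The remaining lower genes were closer to 0. Rps6, the protein that the S6 kinases phosphorylate, stood at 9.57 and 9.72 (-0.15), with its other probe set, below the floor, at 0.14. Rpl22l1, the paralog that can replace Rpl22, stood at 11.90 and 12.05 (-0.15). Rps19bp1, Rpl41, whose protein is very short, and Rpl8, of the peptidyl transferase centre region, had differences of -0.13, -0.12 and -0.11.

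The furthest higher cytosolic gene was Rps4l, a paralog of Rps4x, at 10.49 (transgenic) and 10.02 (control). Its difference of 0.47 comes from 1 probe set. Rps4x itself stood at 13.45 and 13.43. Rps27l, a paralog of Rps27 known as a target of the tumour suppressor p53, had levels of 12.25 and 11.95, a difference of 0.30. All 3 of its probe sets were higher, by 0.30 to 0.38, but each is of the _a or _x type, whose probes can match several transcripts. Rpl27a, of the large subunit, followed at 9.28 and 9.03 (0.25), and its other probe set, below the floor, gave 0.34. Rps26, a protein of the messenger RNA exit site, had a difference of 0.20 and Rpl10a, of the L1 stalk, 0.17. Rpl22 stood at 12.73 and 12.58 (0.16), with its other probe sets at 0.10 and -0.08. Rps3, of the entry site for messenger RNA, had levels of 13.21 and 13.06, with probe sets from -0.54 to 0.15. The value of 0.19 for Rpl39l has both levels below the floor.

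Other well known cytosolic members differed by less. Rplp0, the base of the stalk and a common reference gene, read 13.46 (transgenic) and 13.35 (control). Rpl13a, also used as a reference, read 13.40 and 13.51, and its 4 probe sets ran from -0.14 to -0.03. Rps19, the gene most often mutated in human Diamond-Blackfan anaemia, read 12.29 and 12.34, and Rpl11, which binds Mdm2 when ribosome assembly fails, 12.28 and 12.33. Their differences of -0.05 each were smaller than the median range of 0.14 between probe sets of a cytosolic gene.

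Among mitochondrial genes Mrpl20, whose bacterial counterpart is an early assembly protein of the large subunit, had levels of 9.06 (transgenic) and 9.68 (control). The difference of -0.63, a 1.55-fold lower value, comes from 1 probe set, so no other probe set bears on it. Mrps2, of the small subunit, stood at 8.75 and 9.11 (-0.36), while its other probe set had the opposite sign at 0.18. Each of the next 3 had 1 probe set. Mrps18b stood at 9.11 and 9.40, Mrps34 at 10.36 and 10.64, and Mrps12, at the decoding centre, at 10.36 and 10.62. Their differences were -0.28, -0.28 and -0.25. Mrpl1, of the stalk at the exit site, had a difference of -0.21, Mrps28 -0.20 and Mrps22 -0.19, and of 3 probe sets of Mrpl1 the one below the floor had the opposite sign.

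On the higher side, Mrpl9 had levels of 9.30 (transgenic) and 8.82 (control). Its difference was 0.48, and its other probe sets gave 0.30 and 0.46. Mrpl50, a mitochondrion-specific protein, stood at 8.74 and 8.29 (0.45) with its other probe set at 0.23. All probe sets of Mrpl9 and of Mrpl50 were higher in the transgenic sample. Mrpl45, which ties the exit tunnel to the inner membrane, stood at 8.06 and 7.62 (0.44) from 1 probe set. Mrps25 stood at 7.24 and 6.95 (0.28), and its 2 other probe sets, both below the floor, gave 0.01 and 0.02. Mrps15 had levels of 9.18 and 8.91, with probe sets from -0.08 to 0.46, and Mrpl21 had probe sets from 0.04 to 0.34. Mrps36 stood at 9.34 and 9.08 (0.26). For Mrps10, at 8.85 and 8.61, the second probe set gave -0.56, the opposite sign and the widest range of any mitochondrial gene.

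Of the other mitochondrial members fixed by name, Mrps30, which sits in the large subunit despite its name, had levels of 8.82 and 8.65. Mrpl41 stood at 9.85 and 10.03, and its 3 probe sets were all lower, by -0.29 to -0.08. Mrpl3 read 9.12 and 9.20, with probe sets from -0.41 to 0.07, and Mrpl12, a stalk protein that also binds the mitochondrial RNA polymerase, 8.91 and 8.94.

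**Figure D3:**
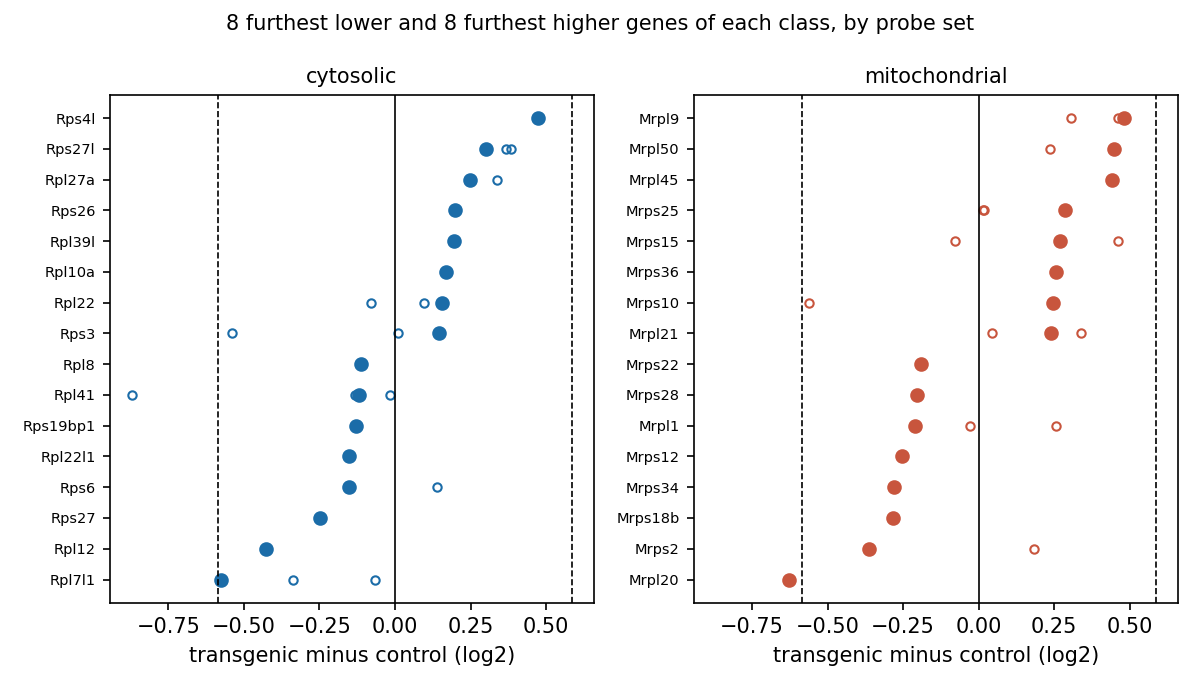
Transgenic minus control log2 difference (horizontal axis) of the 8 furthest lower and 8 furthest higher genes of each class; filled points are the brightest probe set, open points the other probe sets of the gene, and dashed lines the 1.5-fold rule. Probe sets of Rps27l, Mrpl9 and Mrpl50 lie on one side of 0, while those of Rps3, Mrps2 and Mrps10 lie on both.

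Probe sets of a gene share its RNA, so they do not count as replicates. Of 20 cytosolic genes with more than 1 probe set at or above 5.76, all of these probe sets had the same sign in 10, and in the mitochondrial class in 17 of 34. The median range was 0.14 in the cytosolic and 0.20 in the mitochondrial class. The widest was 0.85 for Rpl41, where a dim probe set gave -0.87 at levels of 6.97 and 7.84 and the brightest 2 gave -0.02 and -0.12. Rps24 had 1 probe set at 8.47 and 9.07 (-0.60) and 4 brighter ones between 0.02 and 0.06, with a sixth, below the floor, at -0.41. Rps10, a small subunit protein, had 1 at 5.02 and 5.75 (-0.73), both below the floor, and others from -0.03 to 0.22. These 3 probe sets of Rpl41, Rps24 and Rps10 were the only member probe sets of the cytosolic class past the 1.5-fold rule, all of them lower.

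Promoters of the members were compared as letters, since the classes share a function and not a sequence rule. RefSeq promoters on GRCm38.p6, from 250 bases before to 50 bases after the annotated start, were matched for 110 of 125 members, 43 cytosolic and 67 mitochondrial. The first listed promoter of a gene was used, and both strands were searched. The core CCGGAAG of sites for Ets factors was in 46.5% of cytosolic and 35.8% of mitochondrial promoters, and in 11.9% of 17492 protein-coding promoters. The core AAGATGG of Yy1 sites was in 16.3%, 19.4% and 6.37%, and the core GCATGCG of Nrf1 sites, which overlaps its own reverse complement, in 6.98%, 11.9% and 4.49%. TATAAA was in 11.6%, 5.97% and 13.3%, and CCAAT in 25.6%, 38.8% and 39.0%. A run of at least 5 C or T letters over the annotated start was in 30.2% of cytosolic promoters, 5.97% of mitochondrial and 8.56% of all. The Ets core was thus more frequent in both classes than in promoters at large, and the pyrimidine run in the cytosolic class alone. An annotated start can lie some bases from the true one, so the share with a run need not be the share with a TOP sequence.

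The stretches below are printed because they show these letters in genes named above, from 100 bases before to 20 bases after the start, 5′ to 3′ on the gene's strand. Capitals mark matches to the 5 motifs on either strand and pyrimidine runs over the start. Rps6 holds an Ets core and a run of 10 pyrimidines over its start, Rpl41 an Ets core, and Rps27l an Ets core and CCAAT read on the other strand. Mrpl9 holds an Nrf1 core on both strands and Mrpl45 a run of 10 pyrimidines. Rpl7l1 and Mrpl20, the furthest lower gene of each class, hold none of these letters in this stretch, but over the longer promoter counted above Rpl7l1 holds a Yy1 core and Mrpl20 CCAAT.

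Rps6 (chr4:86857348-86857467, minus strand): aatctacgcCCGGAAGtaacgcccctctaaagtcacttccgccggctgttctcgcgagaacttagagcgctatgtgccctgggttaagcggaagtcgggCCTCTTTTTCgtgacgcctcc
Rpl41 (chr10:128549149-128549268, minus strand): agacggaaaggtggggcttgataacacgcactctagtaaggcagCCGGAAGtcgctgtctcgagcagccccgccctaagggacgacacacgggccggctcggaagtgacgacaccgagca
Rps27l (chr9:66945986-66946105, plus strand): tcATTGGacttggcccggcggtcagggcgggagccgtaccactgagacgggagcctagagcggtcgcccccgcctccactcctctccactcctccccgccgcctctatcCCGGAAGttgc
Rpl7l1 (chr17:46782637-46782756, minus strand): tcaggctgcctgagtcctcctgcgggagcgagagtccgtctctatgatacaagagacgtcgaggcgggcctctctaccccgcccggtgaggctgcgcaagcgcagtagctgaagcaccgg
Mrpl9 (chr3:94443236-94443355, plus strand): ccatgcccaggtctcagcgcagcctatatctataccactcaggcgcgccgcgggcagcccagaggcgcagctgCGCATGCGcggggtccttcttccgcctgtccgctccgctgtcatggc
Mrpl45 (chr11:97315616-97315735, plus strand): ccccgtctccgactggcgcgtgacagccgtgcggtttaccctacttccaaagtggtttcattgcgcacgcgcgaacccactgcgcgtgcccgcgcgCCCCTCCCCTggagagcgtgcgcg
Mrpl20 (chr4:155802778-155802897, plus strand): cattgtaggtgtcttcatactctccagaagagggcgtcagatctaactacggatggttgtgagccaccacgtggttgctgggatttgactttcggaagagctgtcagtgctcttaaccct

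Differences between the arrays were set beside the motifs. Cytosolic genes with the Ets core had a median difference of 0.025 (20 genes) and those without it 0.016 (23 genes), and with and without the pyrimidine run the medians were 0.019 (13 genes) and 0.022 (30 genes). Mitochondrial genes with the Ets core had a median of -0.017 (24 genes) and those without it 0.061 (43 genes). With the Nrf1 core the medians were 0.079 (8 genes) and without it 0.024 (59 genes). The widest gap was that of TATAAA in the mitochondrial class, with medians of -0.095 (4 genes) and 0.038 (63 genes), and cytosolic genes with CCAAT had a median of 0.11 (11 genes) against 0.0062 (32 genes). These gaps rest on few genes and were not tested. The genes also differed in length, with a median of 3551 base pairs in the cytosolic and 7690.5 in the mitochondrial class on GRCm38.p6.

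**Figure D4:**
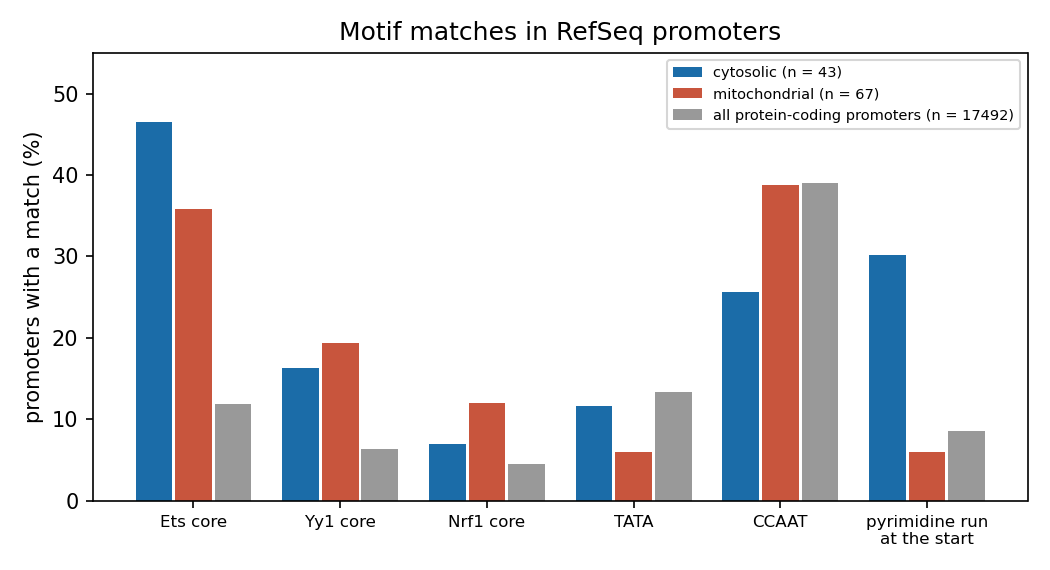
Share of promoters in percent (vertical axis) that hold each motif (horizontal axis), for cytosolic (blue, n = 43) and mitochondrial (red, n = 67) members and all protein-coding promoters (grey, n = 17492). The Ets core is in 46.5% and 35.8% of the member promoters against 11.9% of all, and the pyrimidine run in 30.2% of the cytosolic ones.

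Other genes of the pathway were read from lists drawn up by function. Ribosomal proteins outside the naming rule were few. By the brightest probe set, Fau and Rpsa, of the small cytosolic subunit, had differences of 0.06 and 0.23. The 4 mitochondrial ones, Dap3, Ptcd3, Gadd45gip1 and Chchd1, ran from -0.18 to 0.18. Other probe sets gave -0.16 for Rpsa, -0.15 for Ptcd3 and 0.35 for Gadd45gip1. Of 12 messenger RNAs with a TOP sequence, for translation factors and Tpt1, Npm1 and Hnrnpa1, 9 were higher, with a median of 0.10. By the brightest probe set of each gene, 0 passed the 1.5-fold rule in either direction. Other probe sets did pass it. Those of Hnrnpa1 ran from -1.15 to 0.24 and those of Eif4b from 0.16 to 0.60. The initiation factor subunit Eif3f stood at 11.33 and 11.01 (0.32) and Eif4b at 11.20 and 10.90 (0.31), while the elongation factor Eef1a1 read 13.96 and 13.95.

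Of 25 genes of cytosolic ribosome assembly and RNA polymerase I, 11 were higher and 14 lower, with a median of -0.023. The nucleolar protein Nip7, at 8.42 and 9.05 (-0.63), was the 1 gene of the list past the 1.5-fold rule by brightest probe set. Its other probe set gave -0.11. Probe sets that were not the brightest also passed the rule, at 0.90 for Wdr12 and -0.63 for Pes1. Gnl3 (nucleostemin) stood at 9.83 and 10.33 (-0.50) and Nop58, of the small nucleolar RNA particles that methylate rRNA, at 9.65 and 10.03 (-0.38). Fbl, the methylase of those particles, stood at 10.43 and 10.28. The 22 genes of mitochondrial translation and ribosome assembly were evenly split, with 11 higher and 11 lower and a median of -0.0053. By the brightest probe set of each gene, none of the 22 passed the 1.5-fold rule. Other probe sets did pass it. Those of Eral1 ran from -0.98 to 0.40, and the second one of Tfb1m gave 0.62. The assembly GTPase Noa1 stood at 7.55 and 7.10 (0.45) and Tfb1m, which methylates mitochondrial rRNA, at 7.73 and 7.34 (0.39), while the helicase Ddx28 stood at 6.35 and 6.67 (-0.32). Of 5 kinases of S6 listed, 2 had a value. Rps6kb2, an S6 kinase downstream of mTOR, stood at 6.90 and 6.20 (0.70, past the 1.5-fold rule on 1 dim probe set), and Rps6ka3 at 9.28 and 9.67 (-0.39).

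The array's control probe sets for 18S rRNA, the RNA of the small cytosolic subunit, were lower in the transgenic sample in all 3 cases. The probe set from the 5′ end stood at 10.13 (transgenic) and 12.02 (control) (-1.89), the middle one at 9.66 and 10.37 (-0.71) and the 3′ one at 10.51 and 11.34 (-0.83). The 23 protein genes named for the same subunit had a median difference of 0.019. Ribosomal RNA has no poly-A tail, and how much of it enters the label depends on the priming, which the labels do not give. All 24 poly-A spike controls were higher in the transgenic sample, by a median of 1.51, and all 18 hybridisation controls, by a median of 0.40. The part of these control signals in the 18S values was not tested.

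Of the cell type markers, those of macrophages, of stellate cells and fibroblasts, and of dividing cells differed most between the samples by their medians. The 10 beta cell markers had a median difference of -0.042 and read a median of 12.57 and 12.58, transgenic first. Of these 10, 0 lay below the floor on both arrays, and Ins2 read 14.95 and 15.02. Single beta cell markers went both ways, with 4 higher and 6 lower, from -0.81 for Ucn3 to 0.49 for Abcc8. By brightest probe set Ucn3, at 10.80 and 11.61, was the 1 marker of the list past the 1.5-fold rule. The other probe set of Abcc8 gave 0.92. Markers of other islet endocrine cells had a median of 0.031 (7 genes). Acinar markers, at medians of 13.83 and 13.78, had a median difference of 0.13 (9 genes, with Ptf1a below the floor on both). Macrophage markers were higher in 8 of 10 (median levels 8.49 and 7.80, difference 0.78, Itgam below the floor on both), and stellate and fibroblast markers in 9 of 10 (8.46 and 7.56, difference 0.83, with Col1a1 and Pdgfra below it). Dividing cell markers were higher in 9 of 9 (8.99 and 7.90, difference 1.09). Ductal (5 genes), endothelial (8) and lymphocyte (7) markers had medians of 0.24, 0.091 and -0.14, with Cftr of the ductal list below the floor. The share of these cells in the ribosomal values was not tested, and in bulk RNA more cells of a type and more RNA per cell cannot be told apart.

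**Figure D5:**
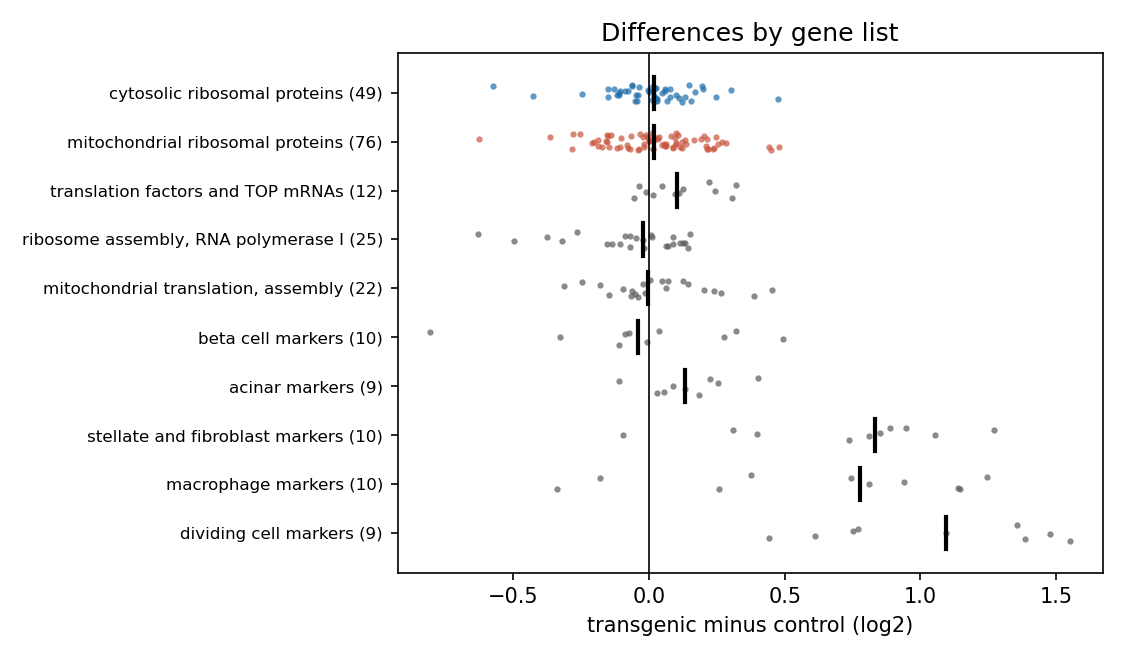
Transgenic minus control log2 difference (horizontal axis) of the genes of each list, with the number of genes in brackets; points are genes and black bars medians. Both ribosomal classes are centred near 0, while macrophage, stellate and dividing cell markers have medians of 0.78, 0.83 and 1.09.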

How the data were processed

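The authors deposited log2 values, 1 for each probe set and array, from RMA in Affymetrix Expression Console, per the submitters' processing notes. Software versions are not given here, nor whether further arrays entered the normalization. RMA corrects background, brings the arrays to a common distribution, summarises the probes of a probe set and gives no detection call. Groups follow the genotype label. Of 45101 probe sets 34958 had 1 gene symbol in the platform annotation, 932 several and 9211 none. Symbols were updated by Entrez identifier from the GRCm38.p6 gene table. No error can be estimated from 1 array for each genotype, and the number of arrays limits the precision. Medians, quartiles and counts were computed with Python 3.11.15, numpy 2.4.6 and pandas 2.3.3. The code for the median and the 1.5-fold higher count was checked on shuffled gene differences of these arrays with a set shift added. That check did not cover the quartiles. The floor, 5.76, is the middle value over both arrays. The rule for named genes took the 8 furthest higher and lower per class, those past 2-fold and those fixed by name, with up to 3 per direction of other lists. The members and lists were chosen with earlier results of these data known. Genes singled out for their probe sets, promoters or levels were chosen after their values were seen. Alternatives averaged the probe sets of a gene, left out the _a, _s and _x types, set 2 floors, repeated the quantile normalization, took off a lowess trend (statsmodels 0.14.6, span 0.3), counted probe sets, and kept core members only.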

Additional observations from a re-analysis of the deposited data

Results flagged for a closer look

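One probe set that the comparison left out, because it carries a ribosomal protein symbol beside that of a predicted gene, stood past the 1.5-fold rule and above the floor on both arrays. It read 10.04 (transgenic) and 9.33 (control), a difference of 0.71. Of the 114 such probe sets it was the only one 1.5-fold higher, and another, at 3.60 and 4.34 and so below the floor, the only one 1.5-fold lower. The 110 cytosolic ones among the 114 had a median difference of 0.018, close to the 0.019 of the member genes. A group of 1 array allows no search for outlying samples.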

How the results depend on the processing

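Of 107 recomputed values (12 results under 9 alternatives, the level gap having none under the lowess trend) 94 kept within a tolerance of 0.05 for a median difference, 0.5 for a level and 1.5 times for a count. Within that tolerance the cytosolic median still changed sign, from 0.019 to -0.0084 after a second quantile normalization and -0.025 without the _a, _s and _x probe sets, and the mitochondrial one from 0.016 to -8.6e-05 with the mean over probe sets. The gap between class levels of 3.57 turned to -1.34 without the _a, _s and _x probe sets, which left 26 and 62 genes. The gap in median difference was then -0.058, 12 cytosolic genes were higher, 3 cytosolic (Rpl41, Rps10 and Rps24) and 0 mitochondrial genes were 1.5-fold lower, since Mrpl20 had no probe set left. With the lowess trend subtracted 1 cytosolic gene, Rpl7l1, was 1.5-fold lower. Counting probe sets, 61 of 104 cytosolic and 88 of 156 mitochondrial ones were higher and 3 cytosolic ones 1.5-fold lower. The tolerance compares counts and not shares. The shares higher were 58.7% and 56.4%, close to the 59.2% and 57.9% of genes. With the probe sets of several symbols added, chosen after seeing the data, 127 of 214 (59.3%) and 89 of 160 (55.6%) were higher. In that setting 1 cytosolic probe set was 1.5-fold higher and 4 lower. No alternative gave a member past 2-fold. The 2 floors and the core set only drop genes, so a count of 0 could not rise in those settings. Such counts are among the 94 and say nothing of stability. No paired analysis was possible because each group holds 1 array. Dim probe sets limit Rps16, Rpl3l and Rpl39l, which read below the floor.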
